A study of Mus musculus with 20 samples.

Results

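The sodium-potassium ATPase genes examined were 8 rows of the kidney count table, found by symbol among 55822 genes. They were the pump's beta subunits Atp1b1, Atp1b2 and Atp1b3 and the accessory Fxyd genes Fxyd1, Fxyd2, Fxyd3, Fxyd4 and Fxyd5. All 8 were found, and all 8 passed the filter on low counts. Messenger RNA of whole kidney was sequenced from male C57BL/6J mice, an inbred strain, aged 8 weeks, with 1 dose daily over 6 days and harvest of the kidneys on day 7. The 5 control mice received phosphate-buffered saline, and the 5 treated mice received puberulic acid, a tropolone acid made by some Penicillium moulds, at 1 mg per day. The sources name both the oral and the intraperitoneal route and do not give the route of each mouse. The labels also describe 5 mice given a normal lot and 5 given a toxic lot of the supplement Choleste-Help, whose columns could not be matched to a lot by name and are not used here. The replicates are labelled as separate samples, and nothing beyond the replicate number says that each is a separate animal.

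The sodium-potassium ATPase sits in the basolateral membrane of tubule cells, moves sodium out of the cell and potassium in, and so drives sodium reabsorption along the nephron. Its alpha subunit carries out ATP hydrolysis and ion transport, and its glycosylated beta subunit is needed for folding, for delivery to the membrane and for adhesion between neighbouring cells. Fxyd proteins are small proteins that cross the membrane a single time, bind the pump and tune its affinity for ions or its maximal rate. In kidney, Fxyd2 is the classical gamma subunit of proximal and distal segments, and Fxyd4, also called CHIF, is the partner of the collecting duct.

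The Fxyd family is named for a short signature of phenylalanine, any residue, tyrosine and aspartate, usually preceded by proline. The coding sequences around that signature are shown because they define which genes belong to the family and show how far its members differ. They were read from GENCODE M21 transcripts, 5′ to 3′, and the capitals mark the codons from the proline to the aspartate.
Fxyd1: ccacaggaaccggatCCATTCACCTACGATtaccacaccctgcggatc
Fxyd2: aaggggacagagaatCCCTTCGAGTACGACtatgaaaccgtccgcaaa
Fxyd3: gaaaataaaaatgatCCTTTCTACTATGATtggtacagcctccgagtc
Fxyd4: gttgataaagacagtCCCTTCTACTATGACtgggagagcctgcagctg
Fxyd5: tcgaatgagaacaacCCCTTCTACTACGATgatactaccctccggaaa
Over these 48 bases, Fxyd3 and Fxyd4 shared 32, the largest number of any pair, and Fxyd2 and Fxyd5 shared 28. Fxyd1 and Fxyd4, and likewise Fxyd2 and Fxyd3, shared 24, the smallest number.

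The 10 libraries held between 18409877 and 24705587 estimated counts. Kidney identity was clear in the controls, where the summed level of 5 proximal tubule markers (Lrp2, Cubn, Slc22a6, Slc5a12 and Aqp1) was 3538 to 4334 CPM (counts scaled to a common library size). With puberulic acid that sum was 426.2 to 491.8 CPM in replicates 2 to 5 and 836.2 CPM in replicate 1, which thus stood nearer the controls than the rest of its group. Of 3 tubular injury markers (Havcr1, Lcn2 and Krt20) all 3 were called higher, with summed levels of 4.09 to 5.88 CPM and 1490 to 2701 CPM. Library scaling matters for every level below. Mitochondrially encoded transcripts took 18.83% to 22.21% of the counts in controls and 10.54% to 13.84% with puberulic acid, and the trimmed mean of M-values (TMM) factors were 0.827 to 0.848 and 1.17 to 1.26. The median log2 fold change of the 16266 genes tested was 0.05 with TMM factors and 0.56 with libraries scaled to total counts. CPM and fold changes below use TMM factors, and values under total-count scaling are given for the members and the named genes of the transport lists where they change a call or a direction. In whole tissue, fewer cells of a type and less RNA per cell cannot be told apart.

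Of the 8 members, 2 were lower (Atp1b1 and Fxyd2), 3 were higher (Fxyd5, Fxyd3 and Atp1b3) and 3 did not pass the test (Atp1b2, Fxyd1 and Fxyd4) by edgeR's quasi-likelihood test at a Benjamini-Hochberg adjusted p under 0.05. The same test called 65.3% of all genes tested, 34.2% higher and 31.1% lower, so 5 of 8 is near the share over all genes. The median log2 fold change of the members was 0.19. The ranges of both groups did not overlap for 4 members (Atp1b1, Atp1b2, Fxyd2 and Fxyd5), where 50.1% of all genes tested had such ranges. With total-count scaling 4 members were higher and 1 was lower, where that scaling called 72.0% of all genes tested, with 56.4% of the genes tested higher and 15.5% lower.

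**Figure D1:**
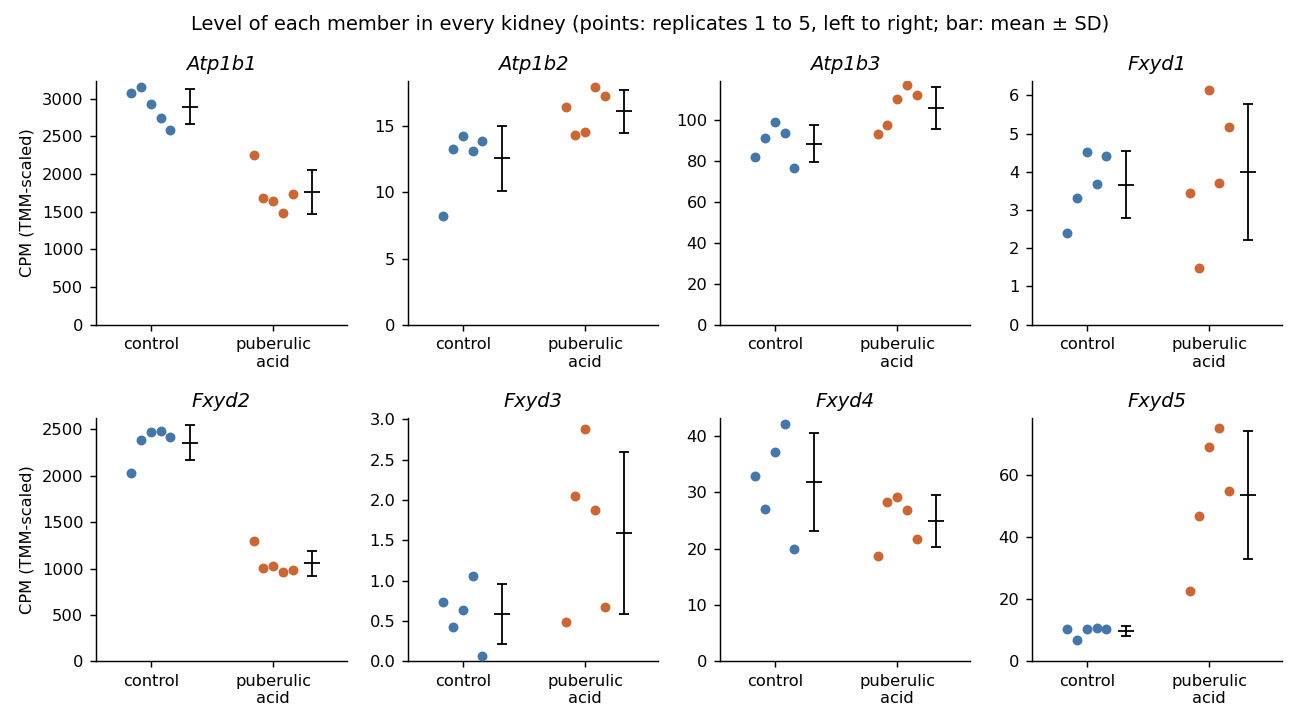
CPM of each member (vertical axes, all starting at 0) in the 5 control and 5 puberulic acid kidneys, with the mean and SD beside the points. Fxyd2 and Atp1b1 lay lower in every puberulic acid kidney than in any control, Fxyd5 lay higher in each of them, and the points of Fxyd1, Fxyd3 and Fxyd4 overlapped.

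The genes differed widely in abundance. Levels between genes are compared as CPM per kilobase, using the median length of each gene's protein-coding transcripts in GENCODE M21, which is not known to be the annotation used for counting. In controls Fxyd2 stood highest at 3627 ± 286 CPM per kb (SD, n = 5), followed by Atp1b1 at 1123 ± 90.8. Fxyd4 (50.7 ± 13.7) and Atp1b3 (44.3 ± 4.56) came next and did not differ beyond their spread, and Fxyd5 followed at 12.0 ± 2.04. Fxyd1 (6.80 ± 1.61) and Atp1b2 (4.42 ± 0.869) were low and also overlapped within their spread, and Fxyd3 was lowest at 0.351 ± 0.222. With puberulic acid the order changed in the middle. Fxyd2 (1623 ± 210) and Atp1b1 (682 ± 113) still led, but Fxyd5 (65.8 ± 25.3) now overlapped both Atp1b3 (53.1 ± 5.15) and Fxyd4 (39.6 ± 7.25). The lowest Atp1b3 kidney, at 46.6 CPM per kb, lay just above the highest Fxyd4 kidney, at 46.4. Fxyd1 (7.41 ± 3.30), Atp1b2 (5.67 ± 0.570) and Fxyd3 (0.955 ± 0.601) closed the order.

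**Figure D2:**
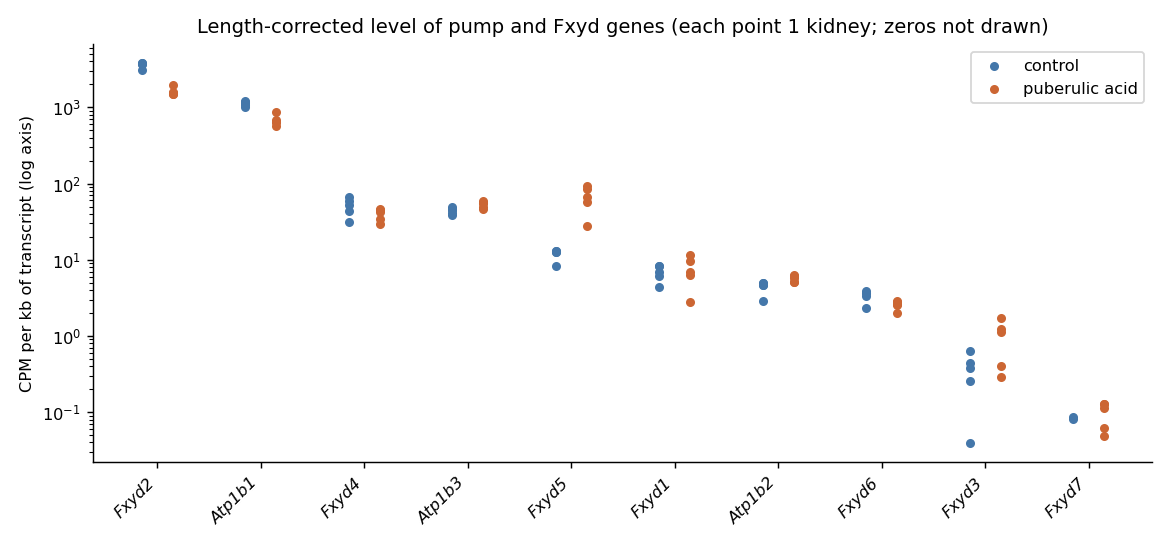
CPM per kb of transcript on a log axis for the pump and Fxyd genes detected, ordered by their control mean, each point being 1 kidney. Fxyd2 and Atp1b1 stood far above the rest in both groups, and Fxyd5 moved from 12.0 to 65.8 CPM per kb.

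Among the beta subunits, Atp1b1 encodes the main beta chain of kidney epithelium and fell to 1.65-fold below control. Atp1b1 (ENSMUSG00000026576) was at 3077, 3152, 2925, 2748 and 2581 CPM in control replicates 1 to 5. With puberulic acid it was at 2252, 1683, 1648, 1479 and 1735 CPM. Every treated kidney lay below every control, and replicate 1 was the nearest to them. The means were 2896 ± 234 and 1759 ± 291 CPM (SD over n = 5 kidneys each), and the fitted log2 change was -0.72 ± 0.12 (SE, adjusted p = 0.00022, edgeR). With total-count scaling the log2 fold change was -0.21 and the call was lost (adjusted p = 0.126, edgeR), and the same scaling after removal of mitochondrially encoded transcripts and the 10 most abundant genes gave -0.39 (adjusted p = 0.011, edgeR). The gene overlaps Nme7 on the opposite strand, which had at most 779 counts in any library, and whether counting used strand is not given in the sources used here.

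Atp1b3 encodes a beta chain found in many tissues, and it was slightly higher, by 1.20-fold. Atp1b3 (ENSMUSG00000032412) was at 81.6, 91.1, 98.7, 93.7 and 76.4 CPM in the controls and at 92.9, 97.2, 110.3, 116.8 and 112.1 CPM with puberulic acid. Replicates 1 and 2 of the treated group lay within the control range. The log2 fold change was 0.26 ± 0.10 (SE, adjusted p = 0.0306, edgeR). The call was lost with no filter on low counts (0.26, adjusted p = 0.067, edgeR). It was also lost when control replicate 1, 2 or 5 or puberulic acid replicate 3, 4 or 5 was left out, with log2 fold changes of 0.19 to 0.26 and adjusted p-values up to 0.114. With total-count scaling the log2 fold change was 0.77 (adjusted p = 3.09e-05, edgeR).

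Atp1b2, a beta chain known mainly from glia and neurons, did not pass the test although its groups did not overlap. Atp1b2 (ENSMUSG00000041329) was at 8.22, 13.3, 14.3, 13.1 and 13.9 CPM in the controls, where replicate 1 was low, and at 16.4, 14.3, 14.6, 17.9 and 17.3 CPM with puberulic acid. The lowest treated value, 14.31 CPM, lay just above the highest control value, 14.26 CPM. The log2 fold change was 0.36 ± 0.15 (SE, adjusted p = 0.0517, edgeR), with a 95% interval from 0.07 to 0.65. It was called with upper-quartile scaling (0.46, adjusted p = 0.019), with total counts (0.87, adjusted p = 0.000341), with a filter of 1 CPM (0.37, adjusted p = 0.0444) and with DESeq2 (0.35, adjusted p = 0.0448). None of the 10 fits that left out 1 library called it (adjusted p from 0.0535 to 0.14, edgeR), and leaving out control replicate 1 gave 0.23.

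The promoters of the main and the minor kidney beta gene are shown because these genes differed in direction. They are RefSeq windows on build GRCm38.p6, from 250 to 21 bases before the start of transcription, read on the minus strand. The submitters' processing notes name another build, GRCm39. Atp1b1 lies at chr1:164458376-164458605 and Atp1b3 at chr9:96364452-96364681, and the capitals mark GC boxes (GGGCGG on either strand).
Atp1b1: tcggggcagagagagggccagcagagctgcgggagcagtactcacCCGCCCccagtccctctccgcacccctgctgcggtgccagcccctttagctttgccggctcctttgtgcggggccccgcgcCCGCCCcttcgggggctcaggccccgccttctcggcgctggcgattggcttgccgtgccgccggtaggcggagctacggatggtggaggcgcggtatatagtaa
Atp1b3: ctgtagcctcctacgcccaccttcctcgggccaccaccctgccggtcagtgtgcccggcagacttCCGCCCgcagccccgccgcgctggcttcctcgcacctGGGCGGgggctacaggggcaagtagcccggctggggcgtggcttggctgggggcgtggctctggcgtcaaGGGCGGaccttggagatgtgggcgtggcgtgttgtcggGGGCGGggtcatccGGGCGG
The Atp1b1 window held 2 GC boxes and 1 CCAAT box (CCAAT on either strand), and the Atp1b3 window held 5 GC boxes and no CCAAT box. RefSeq gives Atp1b3 a second start, whose window, not shown, held 0 GC boxes and 0 CCAAT boxes. Over the 250 bases upstream of 32851 RefSeq starts, 32.74% held a GC box and 33.85% a CCAAT box, 2 motifs chosen after these windows were seen. RefSeq windows were found for 6 of the 8 members, at 7 starts, and none of them held the AP-1 motif TGANTCA on either strand, which was in 6.75% of all windows. None held the HNF1 half-site GTTAAT either, which was in 6.43% of all windows. With 7 windows and motifs this rare, their absence cannot set the members apart from other genes.

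Among the Fxyd genes, Fxyd2, the gamma subunit, fell to 2.23-fold below control. Fxyd2 (ENSMUSG00000059412) was at 2033, 2382, 2474, 2484 and 2414 CPM in control replicates 1 to 5. With puberulic acid it was at 1295, 1009, 1028, 964 and 979 CPM. The highest treated kidney, replicate 1, was well below the lowest control, which was also replicate 1. The means were 2357 ± 186 and 1055 ± 137 CPM (SD over n = 5 kidneys each), and the fitted log2 change was -1.16 ± 0.11 (SE, adjusted p = 2.06e-06, edgeR). Fxyd2 was called lower under every alternative run, including total-count scaling (-0.65, adjusted p = 0.000119, edgeR).

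Fxyd5, also called dysadherin, which is known for raising pump activity and loosening contacts between epithelial cells, rose most of the members, by 5.50-fold. Fxyd5 (ENSMUSG00000009687) was at 10.4, 6.80, 10.5, 10.7 and 10.4 CPM in the controls. With puberulic acid it was at 22.6, 47.0, 69.0, 75.1 and 54.9 CPM. All treated kidneys lay above all controls, and replicate 1 was the lowest of them. The means were 9.77 ± 1.66 and 53.7 ± 20.6 CPM (SD over n = 5 kidneys each), and the fitted log2 change was 2.46 ± 0.28 (SE, adjusted p = 1.12e-05, edgeR). It was called higher under every alternative run, with log2 fold changes from 2.27 to 2.97.

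Of the marker lists of other cell types that the tissue could hold, those of immune cells, fibroblasts and smooth muscle had higher sums beside Fxyd5, while those of endothelium and podocytes did not. The urothelium sum, given with Fxyd3, and the fat sum (0.249 to 0.636 CPM in controls, 2.75 to 69.3 CPM in treated kidneys) were higher in every treated library than in any control, and replicate 1 was lowest of its group for fat but not for urothelium. The fat sum of 69.3 CPM came from puberulic acid replicate 3 alone, and the other treated libraries stood at 2.75 to 5.84 CPM. Of 7 immune cell markers 6 were tested and 3 were called higher (Ptprc, Cd68 and Itgam), none lower, where 34.2% of all genes tested were called higher. Their summed level was 59.6 to 106.7 CPM in controls, against 106.0 to 238.3 CPM in treated kidneys, with treated replicate 1 just inside the control range. The T cell marker Cd3e was at 0.554 CPM in controls against 0.699 CPM in treated kidneys, and the B cell marker Cd79a was at 0.574 and 0.267 CPM. Of 4 fibroblast markers 3 were called higher, with summed levels of 58.8 to 78.3 and 200.7 to 705.4 CPM. Of 5 smooth muscle and pericyte markers 4 were called higher, with summed levels of 73.6 to 164.4 and 246.1 to 748.9 CPM. Of 5 endothelium markers 1 was called lower and none higher (median log2 fold change -0.35), and likewise 1 of 4 podocyte markers (median -0.54), where 31.1% of all genes tested were called lower. With total-count scaling 5 immune and 4 fibroblast markers were called higher, and 0 endothelium and 0 podocyte markers were called lower, where that scaling called 56.4% of all genes tested higher and 15.5% lower. None of the markers in the first 3 lists was at 0 in every library. Puberulic acid replicate 1 had the lowest sum of its group for those 3 lists, as it had for Fxyd5. That order is not particular to those lists. The same library had the lowest tubular injury sum of its group, 1490 CPM, and the highest proximal tubule sum, 836.2 CPM. The part of immune cells, fibroblasts and smooth muscle in the Fxyd5 result was not tested.

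Fxyd4 did not pass the test. Fxyd4 (ENSMUSG00000004988) was at 32.9, 27.0, 37.2, 42.0 and 19.9 CPM in the controls and at 18.6, 28.2, 29.1, 26.9 and 21.7 CPM with puberulic acid. The groups overlapped, with the lowest control inside the treated range. The log2 fold change was -0.35 ± 0.19 (SE, adjusted p = 0.125, edgeR), with a 95% interval from -0.73 to 0.02, and it turned to 0.15 with total-count scaling. Without control replicate 5 it was called lower, at -0.49 (adjusted p = 0.0195, edgeR). All 8 principal cell genes of the collecting duct, the cells in which Fxyd4 is known to be made, were called lower, from -0.37 for Scnn1b, a subunit of the epithelial sodium channel that was at 0.14 with total-count scaling, to -1.90 for Aqp3, a basolateral water channel. Over all genes tested 31.1% were called lower, and with total-count scaling 5 of these 8 were, against 15.5% of all genes. The difference between Fxyd4 and these genes was not tested.

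Fxyd3, also called Mat-8, was the least abundant member and passed the test narrowly. Fxyd3 (ENSMUSG00000057092) had 13, 8, 10, 17 and 1 counts in the controls and 13, 48, 68, 46 and 21 counts with puberulic acid, or 0.585 ± 0.371 and 1.59 ± 1.00 CPM (SD over n = 5 kidneys each). Treated replicates 1 and 5 lay within the control range. The log2 fold change was 1.42 ± 0.59 (SE, adjusted p = 0.0497, edgeR), and the call was lost with median-of-ratios factors, with no filter and in 7 of the 10 fits that left out 1 library. It stood only without control replicate 4, puberulic acid replicate 1 or puberulic acid replicate 5. With a filter of 1 CPM Fxyd3 was not tested. Leaving out puberulic acid replicate 3 gave 1.09 on the log2 scale (adjusted p = 0.137, edgeR). That library also had the highest summed level of 5 urothelium markers, 56.6 CPM, against 18.7 to 23.9 CPM in the other 4 treated libraries and 2.79 to 9.54 CPM in controls. None of those 5 genes was at 0 in every library, and Krt5 alone was called higher. The same library had the highest sum of 3 fat markers, 69.3 CPM, against 2.75 to 5.84 CPM in the other 4 treated libraries. The part of urothelium or fat in the Fxyd3 result was not tested. Fxyd3 overlaps Lgi4 on the opposite strand, which had up to 64 counts, against up to 68 for Fxyd3 itself, so the Fxyd3 values are uncertain.

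Fxyd1, or phospholemman, the partner of the pump in heart and other muscle, did not pass the test and had no stable direction. Fxyd1 (ENSMUSG00000036570) was at 2.40 to 4.52 CPM in the controls with a median of 3.68 CPM, and at 1.49 to 6.14 CPM with puberulic acid with a median of 3.71 CPM. The treated range enclosed the control range. The log2 fold change was 0.13 ± 0.33 (SE, adjusted p = 0.75, edgeR), with a 95% interval from -0.52 to 0.77.

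**Figure D3:**
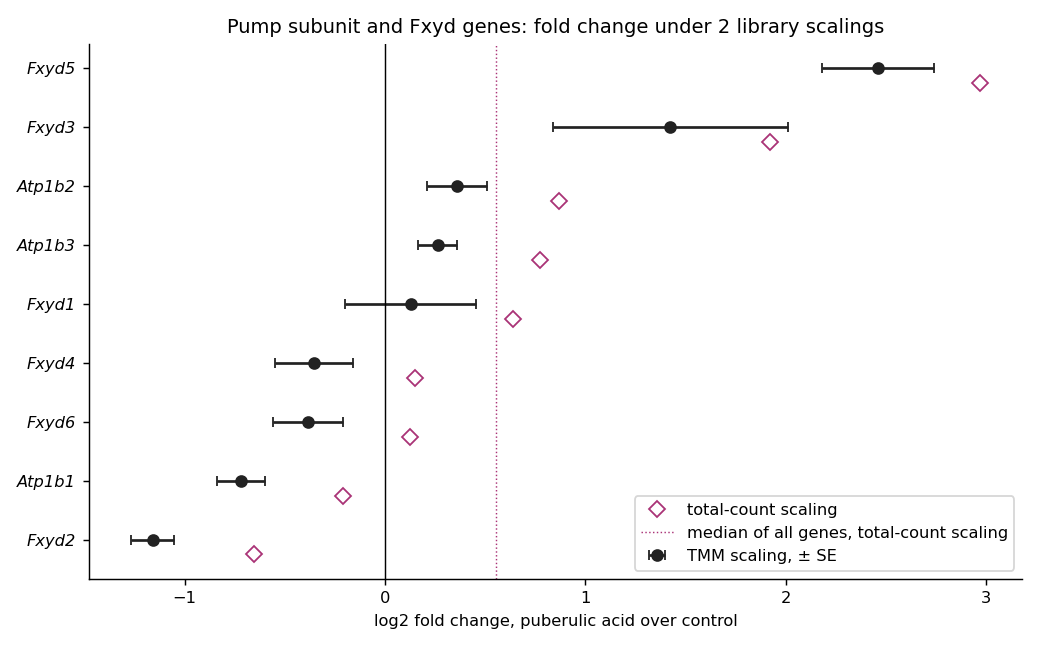
Log2 fold change of the 8 members and of Fxyd6, puberulic acid over control, with TMM scaling (filled, bars ± SE) and total-count scaling (open). Fxyd2 stayed below 0 and Fxyd5 above 0 in both, while Fxyd4 and Fxyd6 changed sign.

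Ratios of 2 members within a library do not depend on how libraries are scaled. They were compared over 4 pairs, with an exact two-sided permutation test over all 252 assignments and adjustment over the 4. The log2 ratio of Fxyd5 to Fxyd2 counts was -7.60, -8.45, -7.88, -7.85 and -7.86 in the controls and -5.84, -4.42, -3.90, -3.68 and -4.16 with puberulic acid. The groups were far apart, with treated replicate 1 the nearest to the controls. The difference was 3.53 ± 0.41 (SE, exact permutation p = 0.00794, adjusted p = 0.0106), so the ratio was 11.5-fold higher. That p is the smallest this design allows.

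The log2 ratio of Atp1b3 to Atp1b1 ran from -5.24 to -4.87 in the controls and from -4.60 to -3.66 with puberulic acid. The ranges did not overlap, and the difference was 0.99 ± 0.17 (SE, exact permutation p = 0.00794, adjusted p = 0.0106), a ratio 1.99-fold higher. The log2 ratio of Fxyd2 to Atp1b1 ran from -0.60 to -0.10 in the controls and from -0.83 to -0.62 with puberulic acid, a difference of -0.43 ± 0.10 (SE, exact permutation p = 0.00794, adjusted p = 0.0106). Fxyd2 thus fell further than Atp1b1, although control replicate 1, at -0.598, lay just above the treated range. The log2 ratio of Fxyd4 to Fxyd2 was higher by 0.84 ± 0.27 (SE, exact permutation p = 0.0317, adjusted p = 0.0317), with treated replicate 1, at -6.12, inside the control range of -6.92 to -5.88. Without puberulic acid replicate 2, 3 or 4 the adjusted exact permutation p of this last ratio was 0.0635.

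**Figure D4:**
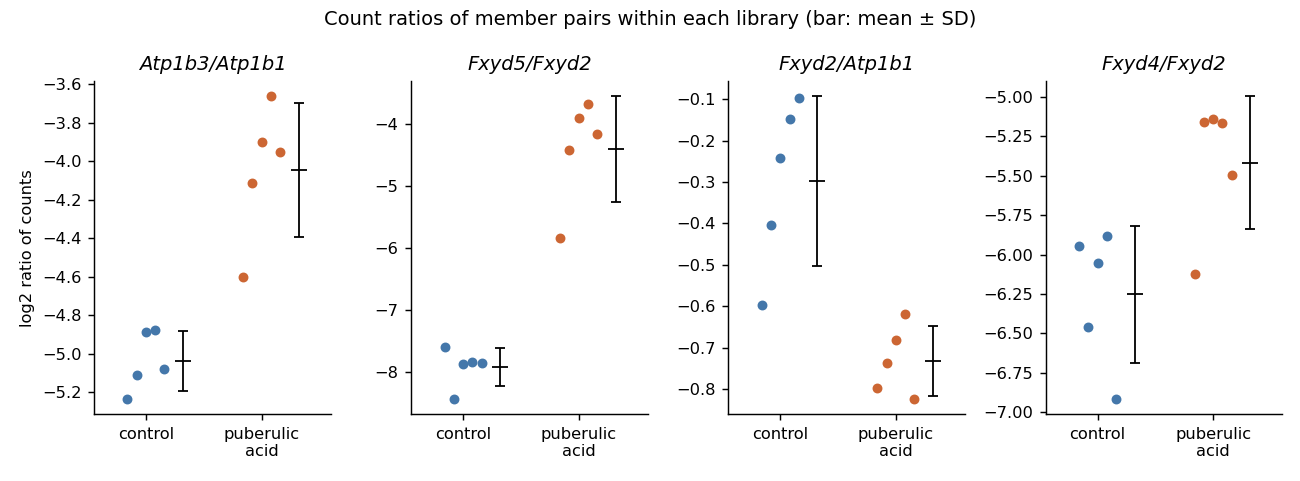
Log2 ratio of the counts of 2 members within each library, with the mean and SD beside the points; vertical axes do not start at 0. The Fxyd5 to Fxyd2 ratio moved from a mean of -7.93 to -4.40, and the Fxyd4 to Fxyd2 ratio overlapped between groups through puberulic acid replicate 1.

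In terms of composition, Atp1b1 made up 95.8% ± 0.451 of the length-corrected beta subunit level in controls and 91.9% ± 1.65 with puberulic acid (SD over n = 5 kidneys each). The share of Atp1b3 was 3.79% ± 0.387 and 7.34% ± 1.53. Fxyd2 made up 98.0% ± 0.385 of the length-corrected level of Fxyd1 to Fxyd7 in controls and 93.1% ± 2.25 with puberulic acid. The share of Fxyd5 was 0.325% ± 0.0635 in controls and 3.90% ± 1.64 with puberulic acid, from 1.34% in replicate 1 to 5.65% in the highest replicate. Atp1b1 and Fxyd2 thus remained the dominant chain of their class in each of the 10 kidneys.

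Of the Fxyd and beta genes outside the 8, 1 was abundant enough to test. Fxyd6, which neighbours Fxyd2, did not pass the test, at -0.39 ± 0.18 (SE, adjusted p = 0.0713, edgeR), and its log2 fold change was 0.12 with total-count scaling. Fxyd6 was called lower with DESeq2 (-0.40, adjusted p = 0.0427) and, with edgeR, without control replicate 1 (-0.51, adjusted p = 0.0126). Atp1b4 had 0 counts in all 10 libraries, and Fxyd7 had 0 to 2 counts.

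The transport lists begin with proximal sodium entry and the later nephron segments. They hold carriers and channels, but also other segment genes such as Umod, Egf, Pvalb and Foxi1. Their calls were read against the 31.1% of all genes tested that were called lower and the 34.2% called higher with TMM factors. Of 9 genes of proximal sodium entry 7 were called lower and none higher, with a median log2 fold change of -2.17. Slc34a1, the main sodium-phosphate cotransporter, was lower by the largest amount and was also the most abundant in controls (-5.36 ± 0.55, SE), and Slc10a2, a sodium-bile acid cotransporter, by the smallest (-0.74 ± 0.16, SE). With total-count scaling the Slc10a2 call was lost (-0.23, adjusted p = 0.216, edgeR). In the thick ascending limb 5 of 8 genes were called lower and none higher (median -0.87), with the largest fall at -1.35 ± 0.25 (SE) for Bsnd, which encodes barttin. Umod, the most abundant gene of that list, stood at 3335 ± 705 CPM without and at 3476 ± 733 CPM with puberulic acid (SD over n = 5 kidneys each), and its fitted log2 change was 0.06 ± 0.18 (SE, adjusted p = 0.782, edgeR). With total-count scaling Umod was called higher (0.57, adjusted p = 0.0119, edgeR), close to the median shift of 0.56 of all genes under that scaling.

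In the distal convoluted tubule 6 of 7 genes were called lower and none higher (median -0.83), from -0.42 ± 0.17 for the potassium channel gene Kcnj10, which was at 0.09 with total-count scaling, to -4.18 ± 0.66 for the calcium-binding protein gene Pvalb. The Kcnj10 call was lost in 8 of the 10 fits that left out 1 library, with adjusted p-values up to 0.0955 (edgeR), and in 4 of 11 other alternatives. It stood only without control replicate 5 or puberulic acid replicate 1 among the former. Egf, encoding epidermal growth factor and the most abundant of these, was at -3.45 ± 0.47. All 8 principal cell genes were called lower (median -1.17), among them Aqp2, the water channel controlled by vasopressin and the most abundant of that list, at -1.36 ± 0.14. Of 5 intercalated cell genes 3 were called lower and none higher (median -1.18), from -0.81 ± 0.19 for the transcription factor Foxi1, whose call was lost with total-count scaling (-0.31, adjusted p = 0.161, edgeR), to -1.35 ± 0.17 for the anion exchanger gene Slc26a4, and all 5 were called without puberulic acid replicate 1. Atp6v1b1, a proton pump subunit and the most abundant of them, was at -1.18 ± 0.17. The errors in this paragraph are SE of log2 fold changes.

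Of 8 basolateral partners of the pump 6 were called lower and none higher (median -1.06), from -0.47 ± 0.13 (SE) for Ank3, the ankyrin that anchors membrane proteins and was at 0.04 with total-count scaling, to -2.52 ± 0.16 (SE) for Kcnj15, a potassium channel and the most abundant of the list. Of 12 regulators of sodium transport 5 were lower and 1 higher (median -0.40), where 31.1% and 34.2% of all genes tested were. Klhl3, which targets Wnk kinases for degradation, was lowest at -2.0 ± 0.31 (SE), Wnk1, the most abundant, was at -0.83 ± 0.16 (SE) and lost its call with total-count scaling (-0.32, adjusted p = 0.0987, edgeR), and the kinase gene Oxsr1 was higher at 0.30 ± 0.09 (SE). Of the 3 genes of the related proton-potassium pump, Atp4a, its catalytic chain, was lower at -1.32 ± 0.31 (SE), Atp12a did not pass the test and Atp4b had 0 counts in all libraries. Scaling mattered for these lists. With total counts, which called 15.5% of all genes tested lower and 56.4% higher, 6 genes of proximal sodium entry were called lower and 1 higher, 1 thick ascending limb gene lower and 2 higher, and 3 distal convoluted tubule genes lower and 1 higher. Likewise 5 principal cell genes were lower and 0 higher, 2 intercalated cell genes lower and 1 higher, 5 basolateral partners lower and 1 higher, and 2 regulators lower and 4 higher.

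**Figure D5:**
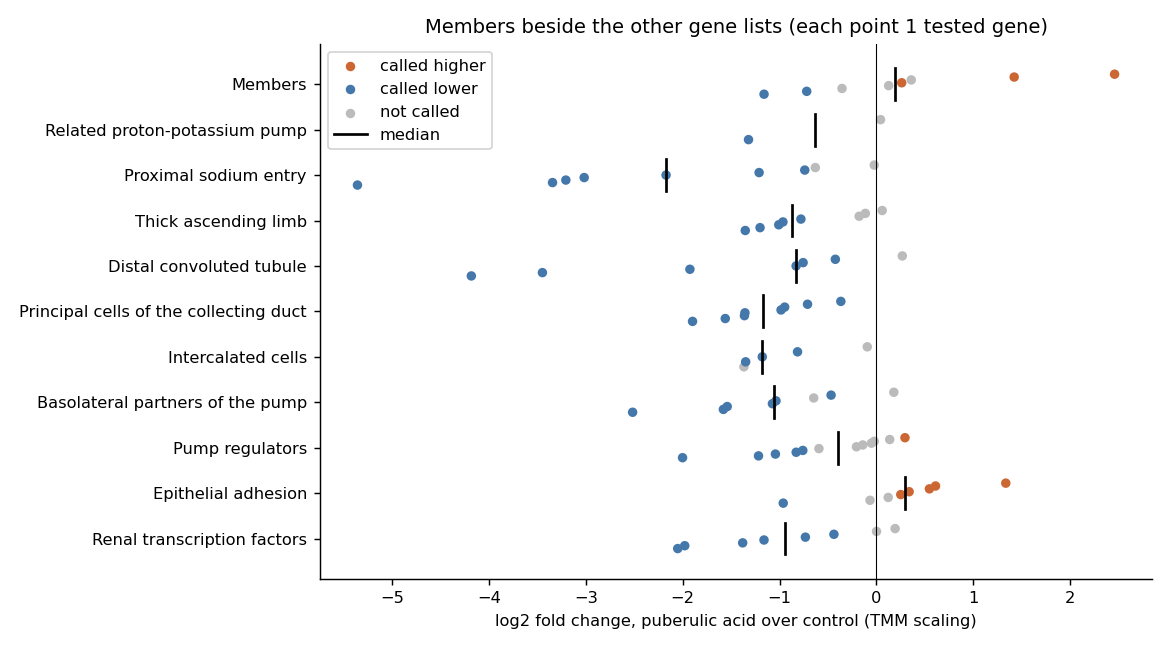
Log2 fold change of each tested gene (horizontal axis, TMM scaling) for the members and the transport, partner, regulator, adhesion and transcription factor lists, coloured by call, with the median as a bar. The members lay on both sides of 0 with a median of 0.19, and the medians of the 5 lists from proximal sodium entry to intercalated cells ran from -2.17 to -0.83.

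The 3 genes most like each member were found among 9312 genes whose mean reached 10 CPM, by the root-mean-square difference of log2((CPM + 1)/(control mean + 1)) over the 10 samples. The closest to Atp1b1 were Cog7 (0.0474), Cdadc1 (0.0660) and Ptges2 (0.0666), and the closest to Fxyd2 were Rilp (0.0470), Atp5a1 (0.0674) and C2cd2l (0.0739). Fxyd5 lay closest to Arpc1b (0.211), Cyth4 (0.222) and Vim (0.224), an actin-nucleating subunit, a regulator of small GTPases and the intermediate filament vimentin. Atp1b3 lay closest to Hars (0.0605), Ube2f (0.0611) and Lmnb2 (0.0711), and Atp1b2 to Cadm4 (0.134), Prdx4 (0.135) and Ist1 (0.136). For Fxyd4 the closest were Nhp2 (0.157), Hsd17b2 (0.184) and Phlda2 (0.202). For Fxyd1 they were Myl9 (0.228), Pdlim2 (0.229) and Acvrl1 (0.241), and for Fxyd3 they were Pfkfb4 (0.288), Apoa4 (0.295) and Gramd1a (0.297). The 1 CPM added to each level shrinks the changes of the scarce members, above all Fxyd3. The 3 genes listed for Fxyd3 had log2 fold changes of 0.93, 0.76 and 0.71, against 1.42 for Fxyd3 itself. The distances carry no test.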

How the data were processed

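The deposited values were estimated counts per gene, unscaled, for poly(A) RNA of whole kidney; per the labels' protocols, libraries were made with a directional kit. The submitters' processing notes name fastp 0.22.0, FastQC 0.12.1, MultiQC 1.28, Salmon 1.10.3, DESeq2 and GRCm39, without roles; the annotation is not given in the sources used here. Columns were matched to samples by name, and 10 sample columns were not used. Symbols were found for 51344 of 55822 genes.

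Estimated counts were rounded. Genes passing filterByExpr were tested with edgeR 4.0.16 (limma 3.58.1, R 4.3.3) by glmQLFit and glmQLFTest, on the 10 control and puberulic acid samples, with Benjamini-Hochberg adjustment over 16266 genes. Each SE was taken from the log2 fold change and its F statistic. The intervals printed with log2 fold changes use a normal approximation, so they are narrower than the quasi-likelihood test implies. The method was tested on simulated data with equal numbers of genes raised and lowered, which does not bear on the scaling differences seen here. Ratios added 0.5 to each count. Alternatives were other scalings and filters, DESeq2 1.42.0, a robust fit, a replicate block and leaving out samples. The members and lists were chosen with earlier results of these data known. Named list genes are the called genes with the largest and smallest change and the most abundant in controls. Some genes of the lists are not reported here.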

Additional observations from a re-analysis of the deposited data

Results flagged for a closer look

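Within each group of 5, the CPM values of the 9 tested Fxyd and beta genes and the 4 ratios were examined for extremes separated from the next value by over 0.71 of the range within their group. This held for 4 of 26 sets of 5 values, and chance alone would mark about 1 in 20. Control replicate 1 was lowest for Atp1b2 (8.22 CPM, a gap of 0.817 of the range) and for Fxyd2 (2033 CPM, a gap of 0.774). Control replicate 2 was lowest for Fxyd5 (6.80 CPM, a gap of 0.916). Puberulic acid replicate 1 was highest of its group for Fxyd2 (1295 CPM, a gap of 0.807).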

How the results depend on the processing

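Over 167 refits of the 8 member log2 fold changes, 140 kept direction and side of the threshold. Genes called ran from 9960 to 11844 over the alternatives that kept all samples and from 10104 to 11108 with 1 library left out, against 10622. Of the calls, 52.4% were higher with TMM factors and 78.4% with total counts. Members called higher were 3, against 1 with no filter, 2 with median-of-ratios factors, 4 with upper-quartile scaling, DESeq2 or either total-count scaling, and 1 to 3 with 1 library left out. A filter of 1 CPM also gave 3, with Atp1b2 in place of Fxyd3, which that filter removed. Members called lower were 2, against 1 with total-count scaling and 2 to 3 with 1 library left out (3 without control replicate 5). The Fxyd4 to Fxyd2 difference was 0.767 to 0.774 without puberulic acid replicate 2, 3 or 4, where its call was lost, within 0.67 to 1.01 over all fits that left out 1 library. With total-count scaling the sign turned for Fxyd4 (0.15), Fxyd6 (0.12), Ank3 (0.0431), Kcnj10 (0.0859), Scnn1b (0.14) and Tfap2b (0.0696). For Fxyd1 it turned to -0.00457 without control replicate 1, -0.0908 without puberulic acid replicate 3 and -0.02 without puberulic acid replicate 5, over a range of -0.0908 to 0.317 with 1 library left out. Umod was at 0.57 and called higher with total-count scaling. Its sign turned to -0.07 without control replicate 5, -0.10 without puberulic acid replicate 1 and -0.0621 with control 1 and puberulic acid 1 left out together, an alternative chosen after seeing the data, as was total-count scaling without the most abundant genes; with 1 library left out Umod ran up to 0.128. Same-numbered samples did not deviate together (correlations from -0.172 to 0.039), and no control correlated best with its own number (0 of 5). With the replicate block 10325 genes were called, with 3 members higher and 2 lower. Fxyd3 and Fxyd1 rest on few counts, which limits their precision.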

Other observations

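The adhesion and transcription factor genes of the tubule moved unevenly beside the pump. Of 8 epithelial adhesion genes 5 were called higher and 1 lower (median log2 fold change 0.30), where 34.2% of all genes tested were called higher and 31.1% lower. With total-count scaling 7 of them were called higher and 1 lower (median 0.80), where 56.4% and 15.5% of all genes tested were. Cdh2, or N-cadherin, was highest at 1.34 ± 0.14 (SE), and Cdh16, the kidney-specific cadherin and the most abundant of the list, was lower at -0.96 ± 0.12 (SE). Cdh1, or E-cadherin, rose from 163 ± 14.3 CPM to 194 ± 12.7 CPM (SD over n = 5 kidneys each), a fitted log2 change of 0.25 (adjusted p = 0.0199, edgeR). Of 8 renal transcription factors 6 were called lower and none higher (median -0.95), from -0.44 ± 0.15 (SE) for Tfap2b, which was at 0.07 with total-count scaling, to -2.05 ± 0.14 (SE) for Hnf4a, the most abundant. With total-count scaling 4 of these transcription factors were called lower and 2 higher.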
